A study of Mus musculus with 6 samples.

Results

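The genes described here are 45 genes of mitosis and chromosome segregation, out of 25124 genes in the deposited table of TPM values (reads corrected for transcript length and for library size; in this table the values of a library sum to 568081 to 572349 in M1 and 551257 to 555447 in M0, short of the full TPM total). They were taken by gene symbol from a fixed list of cyclins and their activators, mitotic kinases, spindle checkpoint proteins, factors of the anaphase-promoting complex, kinetochore proteins, the chromosomal passenger complex, condensin, and spindle and cytokinesis proteins. All 45 were found. The list was chosen with earlier results of these data known, so its counts beside all tested genes are a description. RAW264.7 is a mouse macrophage line, and its poly(A) RNA was sequenced in 3 samples labelled M1 and 3 labelled M0. M1 cells had been given lipopolysaccharide (LPS, a bacterial cell wall component) at 100 ng/ml and interferon-γ at 50 ng/ml, and M0 cells had been given neither. Every sample came from control cells that had received a Cas9 plasmid carrying no guide RNA, prepared beside an E4BP4 knockout line. The cells were grown in DMEM with 25 mM glucose and 10% fetal bovine serum and used at fewer than 15 passages. How long the cells were treated is not stated in the labels. Nothing in the labels says that replicates were separate cultures, so the spread behind each p-value may be a technical one between these samples.

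Most mitotic genes are transcribed in a wave from late S phase to mitosis and are silent in resting cells. In vertebrates the DREAM complex represses many of them outside that wave, and the MuvB core with B-MYB and FOXM1 activates them later, in both cases through a promoter element called CHR (cell cycle genes homology region). CCAAT boxes, bound by NF-Y, often lie upstream of the CHR. The mitotic proteins condense and attach the chromosomes, hold back anaphase until every kinetochore is attached, and then trigger separation and cytokinesis. Classical activation with LPS and interferon-γ is known to slow macrophage proliferation. RNA from a whole culture gives an average, so fewer cells in mitosis and less mitotic RNA per cell cannot be told apart here.

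Each library had 15615639 to 20283180 reads in genes, and a value of a mitosis gene in a library rested on 202 to 22226 reads. The labels fit the markers. All 9 macrophage markers reached 1 TPM and summed to 2763 to 2801 TPM in M1 samples and 3001 to 3228 TPM in M0 samples. The 6 markers of the M1 state summed to 5534 to 5618 TPM in M1 samples, against 49.6 to 51.5 TPM in M0 samples. Of 5 fibroblast markers only Dcn reached 1 TPM in any sample, and the list summed to 1.19 to 1.52 TPM in M1 samples and 0.782 to 1.08 TPM in M0 samples. None of 4 epithelial markers did so, and that list summed to 0 to 0.064 TPM in M1 samples and 0 to 0.172 TPM in M0 samples, with Krt8 and Krt18 listed at 0. M1 replicate 3 and M0 replicate 1 deviated most from their groups in long transcripts. For the 7 mitosis genes with transcripts of at least 5000 bases, median deviations from the group mean were taken on the log2 scale. They were -0.075, -0.058 and 0.12 in M1 replicates 1 to 3, and -0.11, 0.071 and 0.042 in M0 replicates 1 to 3. Over all 1737 tested genes of that length they were -0.053, -0.043 and 0.095 in M1, and -0.078, 0.069 and 0.012 in M0. Deviations within a group offset each other.

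To show where the CHR and the CCAAT boxes lie, promoter stretches of 9 of the genes are printed first. RefSeq (GRCm38.p6) promoters, from 250 bases before to 50 bases after the transcript start, were found for 37 of the 45 genes. Aurkb, Ccna2, Cdc25c, Foxm1, Incenp, Smc4, Spc24 and Tpx2 had no entry. The deposited start equalled the RefSeq start in 36 of the 37, and that of Pttg1 lay 270 bases away. Each stretch holds 120 bases before the start and 20 from it, read 5′ to 3′ along the gene, with the first transcribed base counted as 1. Capitals mark TTTGAA, the CHR, or its reverse complement TTCAAA, and CCAAT or its reverse complement ATTGG. The set takes at least 1 gene from 4 of the roles below, with large differences between M1 and M0 in Ccnf, Espl1 and Cenpf and small ones in Bub3 and Fzr1. All but Fzr1 hold a CHR in the printed stretch, so the set does not represent the 37 genes. Genes without a CHR but with a large difference, such as Cdc25b, are not printed.
Ccnf: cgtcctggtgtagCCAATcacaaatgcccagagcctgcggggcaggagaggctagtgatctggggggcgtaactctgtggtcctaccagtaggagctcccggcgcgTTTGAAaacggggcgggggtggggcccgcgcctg
Ccnb2: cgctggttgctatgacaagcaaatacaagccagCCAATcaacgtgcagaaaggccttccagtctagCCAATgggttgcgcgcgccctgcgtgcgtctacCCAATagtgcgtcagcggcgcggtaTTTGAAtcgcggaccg
Cdk1: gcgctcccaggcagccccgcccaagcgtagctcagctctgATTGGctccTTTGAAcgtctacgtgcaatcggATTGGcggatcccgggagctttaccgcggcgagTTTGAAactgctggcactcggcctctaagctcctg
Ttk: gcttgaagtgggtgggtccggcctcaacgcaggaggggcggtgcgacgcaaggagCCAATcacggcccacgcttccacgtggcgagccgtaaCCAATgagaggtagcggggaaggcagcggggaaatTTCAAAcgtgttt
Cdc20: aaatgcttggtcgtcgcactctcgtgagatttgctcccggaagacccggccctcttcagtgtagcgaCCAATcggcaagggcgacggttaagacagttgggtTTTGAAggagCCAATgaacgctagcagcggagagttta
Espl1: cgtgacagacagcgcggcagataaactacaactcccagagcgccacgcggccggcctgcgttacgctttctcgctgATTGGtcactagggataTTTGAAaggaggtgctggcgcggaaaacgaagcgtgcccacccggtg
Cenpf: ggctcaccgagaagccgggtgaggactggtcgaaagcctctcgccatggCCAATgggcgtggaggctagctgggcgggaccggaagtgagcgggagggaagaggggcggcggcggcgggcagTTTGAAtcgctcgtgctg
Bub3: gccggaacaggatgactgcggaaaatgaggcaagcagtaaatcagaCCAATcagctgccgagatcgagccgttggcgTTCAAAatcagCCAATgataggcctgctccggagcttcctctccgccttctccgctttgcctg
Fzr1: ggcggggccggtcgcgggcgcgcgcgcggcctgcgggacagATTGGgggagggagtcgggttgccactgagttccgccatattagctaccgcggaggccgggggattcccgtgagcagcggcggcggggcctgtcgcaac

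The stretches lie on chr17:24251390-24251529 (minus strand, Ccnf), chr9:70421535-70421674 (minus, Ccnb2), chr10:69352893-69353032 (minus, Cdk1), chr9:83834569-83834708 (plus, Ttk), chr4:118437324-118437463 (minus, Cdc20), chr15:102296173-102296312 (plus, Espl1), chr1:189688067-189688206 (minus, Cenpf), chr7:131560250-131560389 (plus, Bub3) and chr10:81378351-81378490 (minus, Fzr1). The CHR nearest the start began at base -14 in Ccnf, 5 in Ccnb2, -15 in Cdk1, 8 in Ttk, -18 in Cdc20, -27 in Espl1, 3 in Cenpf and -43 in Bub3. The printed stretch of Fzr1 held no CHR and 1 CCAAT box. A gene with several windows was counted if any held the motif. Counting both strands of the whole window, 24 of the 37 genes held TTTGAA (64.9%), against 14.1% of 8774 other tested genes and 20.2% of all 27025 genes in the table. Within 50 bases of the start the shares were 59.5% (22 of 37) of mitosis genes and 3.66% of other tested genes. The variant TTCGAA was in 10.8% of the mitosis genes and in 2.56% of the others.

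At least 1 CCAAT was in 78.4% of the mitosis genes and 43.2% of other tested genes, and at least 2 were in 54.1% and 17.3%. A CHR within 50 bases of the start together with a CCAAT anywhere in the window was in 54.1% of the mitosis genes, against 1.99% of the others. The E2F core, searched on both strands as TTTNNCG with each N either C or G, was in 18.9% and 13.3%. Of 111 matches, 1 pair of different motifs shared bases. The 22 genes with a CHR near the start had a median log2 difference of -0.71 on the TPM scale (-1.52 to -0.19), and the 15 without had -0.50 (-1.51 to 0.01). The 15 include Pttg1, at 0.01, whose window lies 270 bases from its deposited start and does not reach it. The promoter at that deposited start was not searched. The ranges overlapped almost throughout. A match is a run of letters and not a binding site, and no binding was measured.

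**Figure D1:**
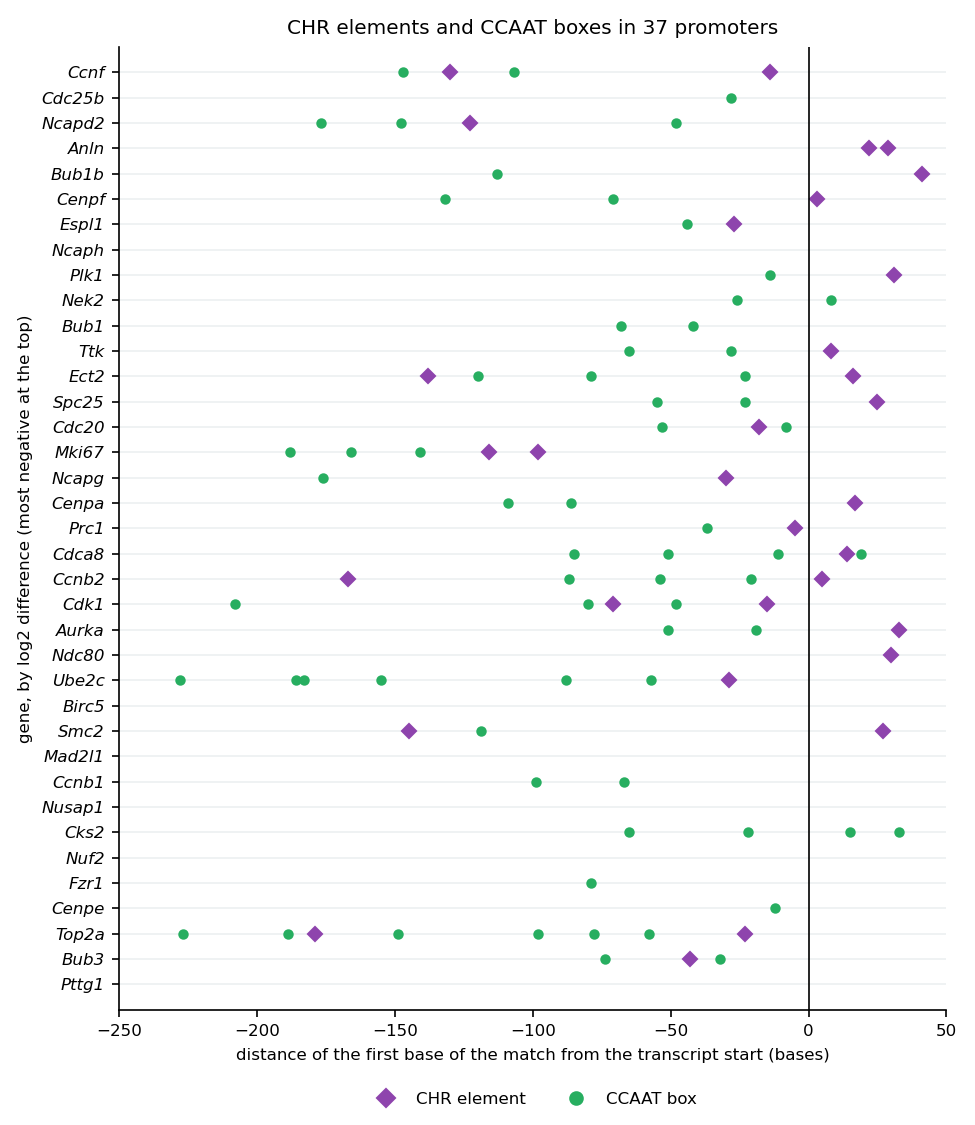
Position of each TTTGAA (CHR, diamonds) and CCAAT (circles) match in the 37 promoters, on either strand; the horizontal axis is the distance in bases from the transcript start and genes run down the page from the most negative log2 difference of M1 against M0 to the most positive. CHR matches gather within 50 bases of the start in 22 genes, among them Bub3 near the bottom of the list, and CCAAT boxes lie on either side of them, more of them upstream.

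On the TPM scale nearly all of these genes were lower in M1 cells, and fewer were after the rescaling described below. TPM gives each gene's part of a library and not an amount per cell. The 45 genes summed to 2266, 2235 and 2350 TPM in M1 replicates 1 to 3, against 3419, 3521 and 3519 TPM in M0 replicates 1 to 3. The 2 groups did not overlap, and the M1 mean of 2284 ± 59.6 TPM was 34.5% below the M0 mean of 3486 ± 58.3 TPM (SD, n = 3 each). Differences were tested with limma on log2(TPM + 1) over 11297 genes and called at a Benjamini-Hochberg adjusted p under 0.05. All 45 genes passed the filter on low values. On this scale 44 were lower in M1, where 61.5% of all tested genes were called lower, and 0 were higher, where 18.7% of all tested genes were called higher. None of the 45 was higher at an unadjusted p under 0.05 either. The largest difference was that of Ccnf and the gene not called was Pttg1. In 43 genes every M1 value was below every M0 value (background 61.8%), the exceptions being Pttg1 and Cenpe, and 11 genes had a mean at least 2-fold lower in M1 (background 16.7%).

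The TPM scale places the median tested gene at -0.31, so a small negative difference is the ordinary case. Dividing each library by its median-of-ratios factor moved the median of all tested genes by 0.33, to 0.02. On that rescaled scale 35 of the 45 genes were called lower (background 35.4%) and 2, Pttg1 and Bub3, were called higher (background 38.1%). The remaining 8, Ccna2, Cks2, Fzr1, Nuf2, Cenpe, Top2a, Smc4 and Nusap1, were not called. After rescaling the M1 and M0 samples overlapped in these 8 genes, and also in Ube2c and Birc5, which were called lower. The 45 genes had a median of -0.66 before rescaling and -0.30 after it. In the authors' deposited table, 34 of the 45 were lower (background 20.7%), 2 higher (background 22.9%) and 9 not called, with the background taken over the 18744 genes with a fold there. That background covers more genes than the 11297 tested above, so the shares cannot be set against each other. The call was that of the rescaled fit in 44 of 45 genes. The exception was Ccnb1. The summed level of the 45 genes was 2591 ± 34.9 rescaled TPM in M1 and 3072 ± 14.6 rescaled TPM in M0, 15.7% lower in M1. Below, "fell" is used of genes called lower on both scales. The counts by role stand against 61.5% of all tested genes called lower on the TPM scale and 35.4% after rescaling. The share of all tested genes called lower on both scales is not given here and cannot be above 35.4%.

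**Figure D2:**
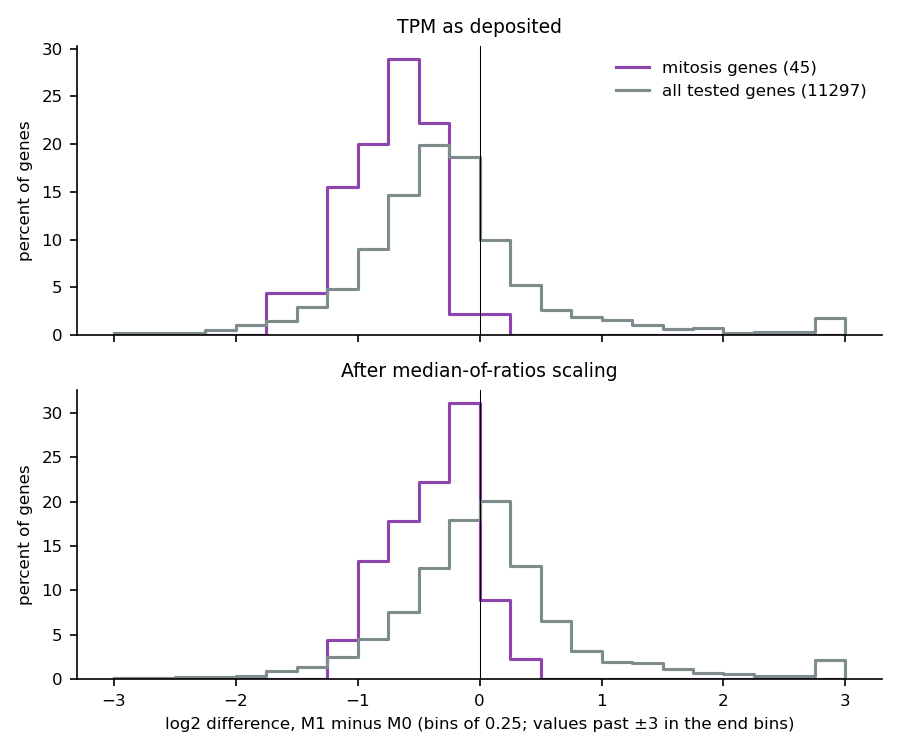
Percent of genes (vertical axis) in bins of 0.25 of the log2 difference, M1 minus M0 (horizontal axis), for the 45 mitosis genes and for all 11297 tested genes; the upper panel uses TPM as deposited and the lower panel TPM after median-of-ratios scaling. The mitosis genes lie to the left of the tested genes in both panels, with medians of -0.66 against -0.31 above and -0.30 against 0.02 below.

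Among the 9 cyclins, Cdk1 and their activators, 7 fell and 2 were called lower on the TPM scale only. Ccnf (chr17:24223232-24251409, minus strand; coordinates are mm10, as deposited) encodes cyclin F, the substrate-binding subunit of an SCF ubiquitin ligase. It had 12.9, 12.2 and 12.7 TPM in M1 samples, against 38.3, 39.7 and 35.9 TPM in M0 samples. The groups lay far apart, and the mean was 3.01-fold lower in M1. Its log2 difference was -1.52 ± 0.06 (SE; limma adjusted p = 5.42e-10) on the TPM scale and -1.17 after rescaling. Cdc25b, a phosphatase that removes the inhibitory phosphates of Cdk1, averaged 13.1 ± 0.978 TPM in M1 and 38.9 ± 1.501 TPM in M0, and its log2 difference was -1.51 on the TPM scale. Its relative Cdc25c averaged 7.12 ± 0.487 TPM in M1 and 12.9 ± 0.710 TPM in M0.

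Cdk1 (chr10:69335146-69352912, minus strand), the kinase that drives entry into mitosis, had 37.8, 36.3 and 35.5 TPM in M1 samples, against 58.4, 54.7 and 54.0 TPM in M0 samples. No M1 sample reached an M0 sample. The log2 difference was -0.60 ± 0.05 (SE; limma adjusted p = 6.5e-07) on the TPM scale and -0.24 (adjusted p = 0.00271) after rescaling. Its partner cyclin B1 (Ccnb1) had 31.7, 30.5 and 34.1 TPM in M1 samples, against 45.003, 46.9 and 44.9 TPM in M0 samples, and these groups too did not overlap. It fell by 0.49 on the log2 TPM scale and by 0.14 after rescaling (limma adjusted p = 0.0219), whereas in the authors' deposited table its adjusted p was 0.0548. Ccnb2, the second B-type cyclin, averaged 71.5 ± 0.889 TPM in M1 and 109 ± 5.45 TPM in M0 and fell by 0.61 on the log2 TPM scale.

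Ccna2, the cyclin of S phase and G2, was the most abundant of this group. It had 114, 114 and 122 TPM in M1 samples, against 158, 154 and 157 TPM in M0 samples. The M0 samples were tightly bunched above the M1 samples, and the log2 difference was -0.42 on the TPM scale (limma adjusted p = 4.74e-06). After rescaling it was -0.06 (limma adjusted p = 0.26). Cks2, a small Cdk-binding subunit, had 19.9, 19.2 and 19.2 TPM in M1 samples, against 25.7, 24.9 and 27.3 TPM in M0 samples. The groups did not overlap, and the log2 difference was -0.40 on the TPM scale but -0.05 after rescaling (limma adjusted p = 0.413). Foxm1, a transcription factor of G2 and mitosis, had 13.6, 13.3 and 16.6 TPM in M1 samples, against 27.1, 30.6 and 28.03 TPM in M0 samples. It fell on both scales, by 0.94 on the log2 TPM scale and by 0.59 after rescaling (limma adjusted p = 4.26e-05).

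The 3 kinases that build the spindle poles fell. Plk1 (chr7:122159435-122169884, plus strand), a Polo-like kinase that acts from centrosome maturation to cytokinesis, had 29.2, 29.9 and 31.8 TPM in M1 samples, against 64.0, 61.9 and 65.8 TPM in M0 samples. The highest M1 sample had less than the lowest M0 sample by a wide margin. Its log2 difference was -1.05 ± 0.05 (SE; limma adjusted p = 5.26e-09) on the TPM scale and -0.69 after rescaling. Nek2, which separates the centrosomes, averaged 21.8 ± 2.27 TPM in M1 and 46.2 ± 2.57 TPM in M0, with the same log2 difference of -1.05 on the TPM scale. Aurka, the spindle pole Aurora kinase, had 47.2, 49.9 and 52.5 TPM in M1 samples, against 72.8, 75.0 and 73.3 TPM in M0 samples. It fell by 0.55 on the log2 TPM scale and by 0.20 after rescaling (limma adjusted p = 0.00252).

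Of the 5 spindle checkpoint genes 4 fell, and the direction of Bub3 depended on the scale. Bub1b (chr2:118598211-118641592, plus strand) encodes BubR1, which with Bub3, Mad2 and Cdc20 forms the complex that holds back anaphase. It had 23.4, 23.2 and 25.8 TPM in M1 samples, against 55.7, 60.5 and 58.2 TPM in M0 samples. The groups were well separated, and the log2 difference was -1.23 ± 0.06 (SE; limma adjusted p = 3.5e-09) on the TPM scale and -0.88 after rescaling. The kinases Bub1 and Ttk, which start the checkpoint at kinetochores, fell by 0.97 and 0.87 on the log2 TPM scale. Bub1 averaged 31.8 ± 1.45 TPM in M1 and 63.0 ± 1.42 TPM in M0, and Ttk averaged 20.8 ± 0.661 TPM in M1 and 38.9 ± 1.41 TPM in M0.

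Mad2l1, which encodes Mad2, had 98.1, 96.4 and 93.8 TPM in M1 samples, against 138, 139 and 131 TPM in M0 samples. It fell by 0.50 on the log2 TPM scale and by 0.14 after rescaling (limma adjusted p = 0.0229). Without M1 replicate 3 and M0 replicate 1 the rescaled difference was -0.085 and not called (limma adjusted p = 0.0801). Those samples hold its lowest M1 and highest M0 rescaled values, so leaving them out must shrink the difference. Nothing is drawn from the lost call. Bub3 (chr7:131560370-131571892, plus strand), the WD40 adaptor of Bub1 and BubR1, had 102, 99.0 and 104 TPM in M1 samples, against 115, 117 and 117 TPM in M0 samples. Its groups did not overlap, but its log2 difference turned over with the scale: -0.19 ± 0.04 (SE; limma adjusted p = 0.00125) on the TPM scale and 0.17 ± 0.04 (adjusted p = 0.00311) after rescaling. The ratio of Bub1b to Bub3, which no scaling between libraries can alter, was 0.230, 0.234 and 0.248 in M1 samples and 0.483, 0.517 and 0.496 in M0 samples. This ratio was chosen after the values were seen and was not tested.

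Of the 5 genes of the anaphase-promoting complex, separase and securin, 3 fell, Fzr1 was lower on the TPM scale only, and Pttg1 was not called lower on either scale. Cdc20 and Fzr1 (Cdh1) encode the activators of the complex, Cdc20 at anaphase and Cdh1 from mitotic exit through G1. Cdc20 (chr4:118432901-118437343, minus strand) had 47.6, 47.8 and 48.2 TPM in M1 samples, against 87.8, 85.4 and 84.6 TPM in M0 samples. The 3 M1 samples were almost equal and all below the M0 samples. The log2 difference was -0.83 ± 0.04 (SE; limma adjusted p = 8.87e-09) on the TPM scale and -0.47 after rescaling.

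Fzr1 (chr10:81366879-81378370, minus strand) had 29.3, 33.0 and 31.6 TPM in M1 samples, against 38.9, 39.6 and 42.6 TPM in M0 samples. The groups did not overlap; the log2 difference was -0.36 on the TPM scale (limma adjusted p = 0.000159) and -0.0019 after rescaling (adjusted p = 0.978). The ratio of Cdc20 to Fzr1 was 1.62, 1.45 and 1.53 in M1 samples, against 2.26, 2.16 and 1.99 in M0 samples. Every M1 ratio was below every M0 ratio, with a log2 difference of -0.48 and an exact two-sided permutation p of 0.1 (0.15 adjusted over the 3 ratios tested), the smallest that 3 samples against 3 allow. The other two ratios concern cyclins, and all 3 are unaffected by scaling between libraries. The ratio of Ccnb1 to Ccnb2 was 0.448, 0.420 and 0.480 in M1 samples and 0.427, 0.437 and 0.388 in M0 samples, overlapping (exact permutation p = 0.3, adjusted 0.3). The ratio of Ccnb1 to Ccna2 was 0.278, 0.268 and 0.279 in M1 samples and 0.285, 0.304 and 0.286 in M0 samples, without overlap, a log2 difference of -0.09 (exact permutation p = 0.1, adjusted 0.15). No ratio can reach 0.05 in this design.

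Ube2c, the ubiquitin-conjugating enzyme of the complex, had 185, 169 and 170.1 TPM in M1 samples, against 268, 239 and 257 TPM in M0 samples. It was the second most abundant of the 45 genes after Top2a and fell by 0.54 on the log2 TPM scale and by 0.18 after rescaling (limma adjusted p = 0.0286). Its rescaled groups overlapped. The rescaled call was lost with M1 replicate 3 and M0 replicate 1 left out, at -0.094 (limma adjusted p = 0.167). They hold the lowest M1 and highest M0 rescaled values of Ube2c, so leaving them out must shrink the difference. Nothing is drawn from the lost call. Ube2c shares 22.8% of its exonic bases with Tnnc2 in the GENCODE annotation, and the labels do not say whether counting used strand. Ncapg, Cdc25c, Ccna2 and Prc1 share 13.4%, 12.7%, 12.5% and 11.1% of theirs with a neighbour. Espl1 (chr15:102296293-102324356, plus strand) encodes separase, the protease that cleaves cohesin at anaphase, and Pttg1 (chr11:43420244-43426251, minus strand) encodes securin, its inhibitor. Espl1 had 9.06, 9.22 and 10.1 TPM in M1 samples, against 22.2, 24.0 and 22.8 TPM in M0 samples.

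The Espl1 groups lay far apart, with a log2 difference of -1.20 ± 0.06 (SE; limma adjusted p = 9.5e-09) on the TPM scale and -0.86 after rescaling. Pttg1 had 136, 129 and 119 TPM in M1 samples, against 132, 127 and 122 TPM in M0 samples. These groups overlapped, and the log2 difference was 0.01 ± 0.06 (SE; limma adjusted p = 0.855) on the TPM scale. After rescaling, Pttg1 stood at 156, 148 and 133 rescaled TPM in M1 samples, against 119, 110.0 and 107 rescaled TPM in M0 samples. These groups did not overlap, and Pttg1 was called higher in M1 by 0.37 ± 0.06 on the log2 scale (limma adjusted p = 0.000403). The ratio of Espl1 to Pttg1, chosen after the values were seen and not tested, was 0.0667, 0.0713 and 0.0848 in M1 samples and 0.168, 0.190 and 0.187 in M0 samples.

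**Figure D3:**
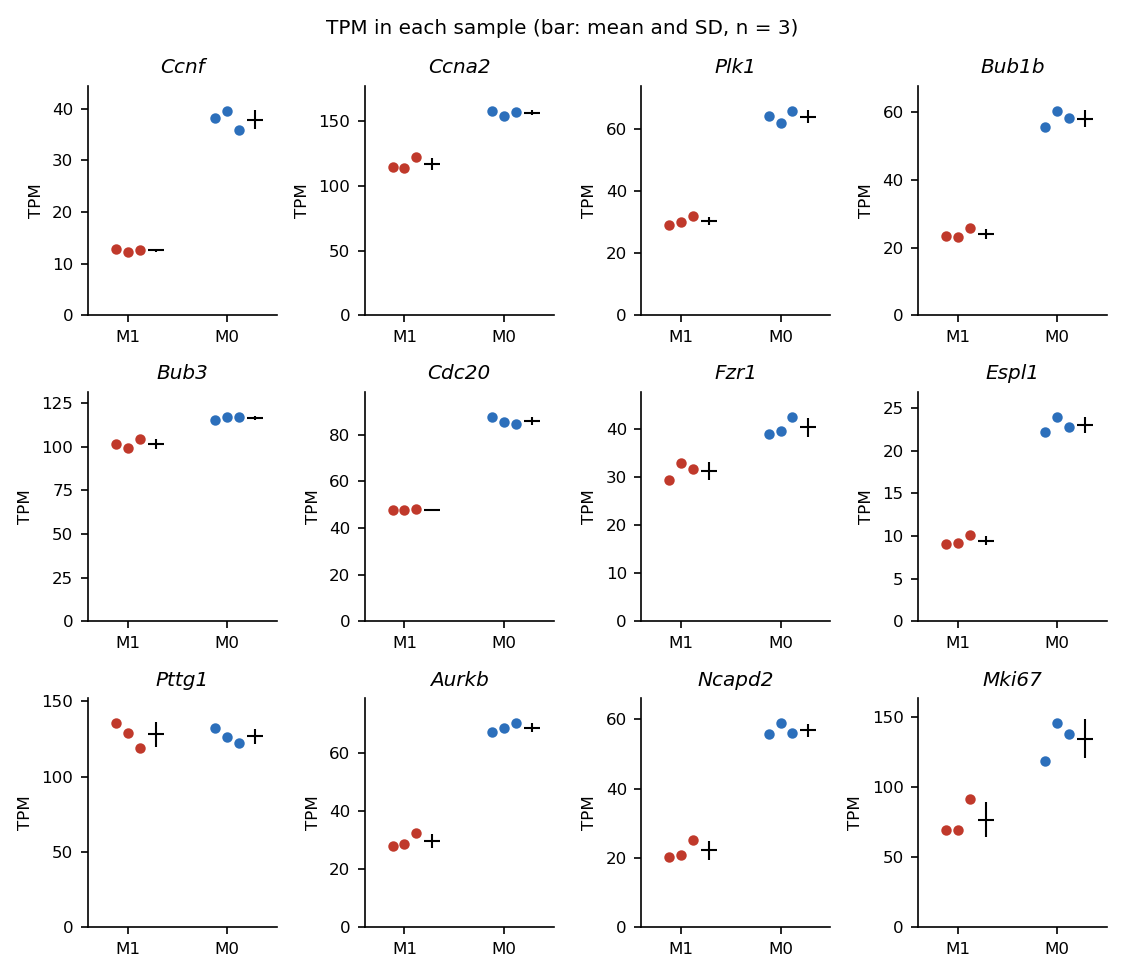
TPM (vertical axes, from 0) in each of the 3 M1 samples (left) and 3 M0 samples (right) for 12 of the genes; points are samples and the cross is the mean with its SD. The groups are apart in every panel except that of Pttg1, and the gap is widest relative to the level in Ccnf and narrow in Bub3.

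All 7 centromere and kinetochore genes were called lower on the TPM scale and 5 fell. Cenpf (chr1:189640614-189688086, minus strand), a large protein of the outer kinetochore, had 11.6, 11.8 and 14.5 TPM in M1 samples, against 25.6, 34.4 and 32.4 TPM in M0 samples. The spread within M0 was wide, with replicate 1 lowest, but no samples overlapped. Its log2 difference was -1.22 ± 0.12 (SE; limma adjusted p = 1.86e-05) on the TPM scale and -0.87 after rescaling. Cenpe, the kinetochore kinesin that moves chromosomes to the spindle equator, had 37.6, 38.0 and 43.5 TPM in M1 samples, against 42.9, 54.9 and 54.4 TPM in M0 samples. M1 replicate 3 lay above M0 replicate 1, so the groups overlapped. The log2 difference was -0.34 ± 0.10 (SE; limma adjusted p = 0.0112) on the TPM scale and 0.02 (adjusted p = 0.866) after rescaling.

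These are long transcripts, of 11102 bases in Cenpf and 7765 bases in Cenpe. The samples that crossed in Cenpe are those that deviated most in long transcripts. Both genes are themselves among the 7 long mitosis genes counted there. Over the 1737 tested genes of at least 5000 bases the deviations were 0.095 in M1 replicate 3 and -0.078 in M0 replicate 1. M1 replicate 3 and M0 replicate 1 hold the highest M1 value and the lowest M0 value of both genes, so leaving them out must widen the difference, and no test is drawn from it. The log2 difference of Cenpe without them was -0.52 on the TPM scale, and -0.14 with rescaling. That of Cenpf was then -1.44 on the TPM scale, and -1.07 after rescaling with the same samples out. The part of transcript length in these values was not tested further. Cenpa, the histone H3 variant that marks centromeres, averaged 49.7 ± 2.74 TPM in M1 and 81.6 ± 0.409 TPM in M0 and fell by 0.70 on the log2 TPM scale.

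The NDC80 complex, which couples kinetochores to microtubules, has 4 subunits, whose log2 differences ran from -0.86 in Spc25 to -0.39 in Nuf2 on the TPM scale. Spc25 had 50.8, 53.1 and 49.9 TPM in M1 samples, against 97.6, 93.2 and 91.6 TPM in M0 samples, with no overlap, and it fell (limma adjusted p = 1.4e-08). Nuf2 had 55.7, 54.8 and 59.9 TPM in M1 samples, against 70.7, 76.0 and 76.8 TPM in M0 samples. The groups did not overlap, and the log2 difference was -0.39 on the TPM scale (limma adjusted p = 3.5e-05) and -0.03 after rescaling (adjusted p = 0.615). The other two subunits lay between these: Ndc80 averaged 40.4 ± 1.23 TPM in M1 and 59.3 ± 3.33 TPM in M0, and Spc24 averaged 21.1 ± 0.720 TPM in M1 and 33.1 ± 1.31 TPM in M0. They fell by 0.54 and 0.63 on the log2 TPM scale. The differences between subunits were not tested.

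All 4 genes of the chromosomal passenger complex, which corrects faulty attachments and later directs cytokinesis, fell. Its kinase Aurkb (chr11:69045637-69051664, plus strand) had 28.1, 28.8 and 32.5 TPM in M1 samples, against 67.4, 68.6 and 70.5 TPM in M0 samples. The groups were far apart, and the log2 difference was -1.18 ± 0.06 (SE; limma adjusted p = 6.54e-09) on the TPM scale and -0.83 after rescaling. Birc5 (survivin), which brings the complex to centromeres, had 74.4, 70.0 and 69.1 TPM in M1 samples, against 104, 95.8 and 109.9 TPM in M0 samples. It was the most abundant of the 4 and fell by 0.53 on the log2 TPM scale and by 0.17 after rescaling (limma adjusted p = 0.0305), where its groups overlapped. With M1 replicate 3 and M0 replicate 1 left out, its rescaled difference was -0.12 and no longer called (limma adjusted p = 0.202), so 3 of the 4 genes then kept a rescaled call. In rescaled TPM of Birc5, M1 replicate 3 is the lowest M1 value and M0 replicate 1 lies above the M0 mean. Leaving them out must therefore shrink the difference, and nothing is drawn from the lost call.

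The scaffold Incenp averaged 49.0 ± 4.07 TPM in M1 and 87.8 ± 2.26 TPM in M0, and borealin (Cdca8) averaged 57.1 ± 2.11 TPM in M1 and 88.2 ± 2.06 TPM in M0. Their log2 differences were -0.83 and -0.62 on the TPM scale. The ratio of Aurkb to Aurka, also chosen after the values were seen and not tested, was 0.595, 0.577 and 0.619 in M1 samples and 0.926, 0.914 and 0.963 in M0 samples, so all M1 ratios lay below all M0 ratios.

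Of the 7 genes of condensin and chromosome structure, 5 fell and Smc4 and Top2a were called lower on the TPM scale only. Ncapd2 (chr6:125168007-125191586, minus strand), a HEAT-repeat subunit of condensin I, had 20.4, 21.0 and 25.3 TPM in M1 samples, against 55.7, 59.1 and 55.9 TPM in M0 samples. The groups did not approach each other, and the log2 difference was -1.32 ± 0.07 (SE; limma adjusted p = 2.05e-08) on the TPM scale and -0.97 after rescaling. The other non-SMC subunits of condensin I, Ncaph and Ncapg, averaged 20.8 ± 1.93 and 37.6 ± 1.38 TPM in M1 and 45.3 ± 1.68 and 62.7 ± 1.38 TPM in M0. They fell by 1.09 and 0.72 on the log2 TPM scale.

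The SMC ATPases Smc2 and Smc4 form the core of both condensins. Smc2 averaged 50.3 ± 1.48 TPM in M1 and 72.6 ± 4.22 TPM in M0 and fell by 0.52 on the log2 TPM scale and by 0.16 after rescaling (limma adjusted p = 0.00932). Smc4 had 123, 117 and 126 TPM in M1 samples, against 139, 147 and 154 TPM in M0 samples. There was no overlap, but the log2 difference of -0.26 on the TPM scale (limma adjusted p = 0.000641) became 0.10 after rescaling (adjusted p = 0.0721). The ratio of Ncapd2 to Smc4, chosen after the values were seen and not tested, was 0.166, 0.180 and 0.201 in M1 samples and 0.402, 0.401 and 0.364 in M0 samples.

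Top2a (chr11:98992947-99024189, minus strand), the topoisomerase that untangles sister chromatids, was the most abundant of the 45 genes. It had 194, 189.6 and 209.9 TPM in M1 samples, against 224, 254 and 249 TPM in M0 samples. All M1 samples were below all M0 samples; the log2 difference was -0.29 on the TPM scale (limma adjusted p = 0.000767) and 0.07 after rescaling (adjusted p = 0.236). Mki67 (chr7:135689788-135716379, minus strand), the protein behind the Ki-67 proliferation marker that coats mitotic chromosomes, had 69.4, 69.4 and 91.2 TPM in M1 samples, against 119, 146 and 138 TPM in M0 samples. The highest M1 sample was replicate 3 and the lowest M0 sample was replicate 1, as in Cenpf, and the transcript has 10059 bases. Its log2 difference was -0.81 ± 0.13 (SE; limma adjusted p = 0.00144) on the TPM scale and -0.44 (adjusted p = 0.00693) after rescaling. Without those 2 samples, which again must widen the difference, the TPM scale gave -1.02 and the rescaled scale -0.63.

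All 5 genes of the spindle and cytokinesis were called lower on the TPM scale and 4 fell. Anln (chr9:22331214-22389206, minus strand) encodes anillin, a scaffold of the contractile ring. It had 22.3, 22.8 and 25.6 TPM in M1 samples, against 54.9, 61.3 and 59.97 TPM in M0 samples. The groups were well separated, and the log2 difference was -1.28 ± 0.06 (SE; limma adjusted p = 6.88e-09) on the TPM scale and -0.93 after rescaling. Ect2, the exchange factor that activates RhoA at the cleavage plane, averaged 23.4 ± 0.803 TPM in M1 and 43.6 ± 0.115 TPM in M0 and fell by 0.87 on the log2 TPM scale. Prc1, which bundles microtubules of the central spindle, averaged 50.8 ± 2.11 TPM in M1 and 80.7 ± 2.65 TPM in M0 and fell by 0.66 on that scale.

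Tpx2, the microtubule-binding activator of Aurora A, had 59.0, 58.2 and 62.6 TPM in M1 samples, against 90.5, 94.7 and 94.7 TPM in M0 samples. It fell by 0.63 on the log2 TPM scale and by 0.27 after rescaling (limma adjusted p = 0.000162), with no overlap. Nusap1, a spindle microtubule-binding protein, had 29.1, 26.98 and 28.6 TPM in M1 samples, against 39.8, 40.4 and 37.5 TPM in M0 samples. Its groups did not overlap either, and the log2 difference was -0.46 on the TPM scale (limma adjusted p = 8.92e-06) and -0.11 after rescaling (adjusted p = 0.0851).

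**Figure D4:**
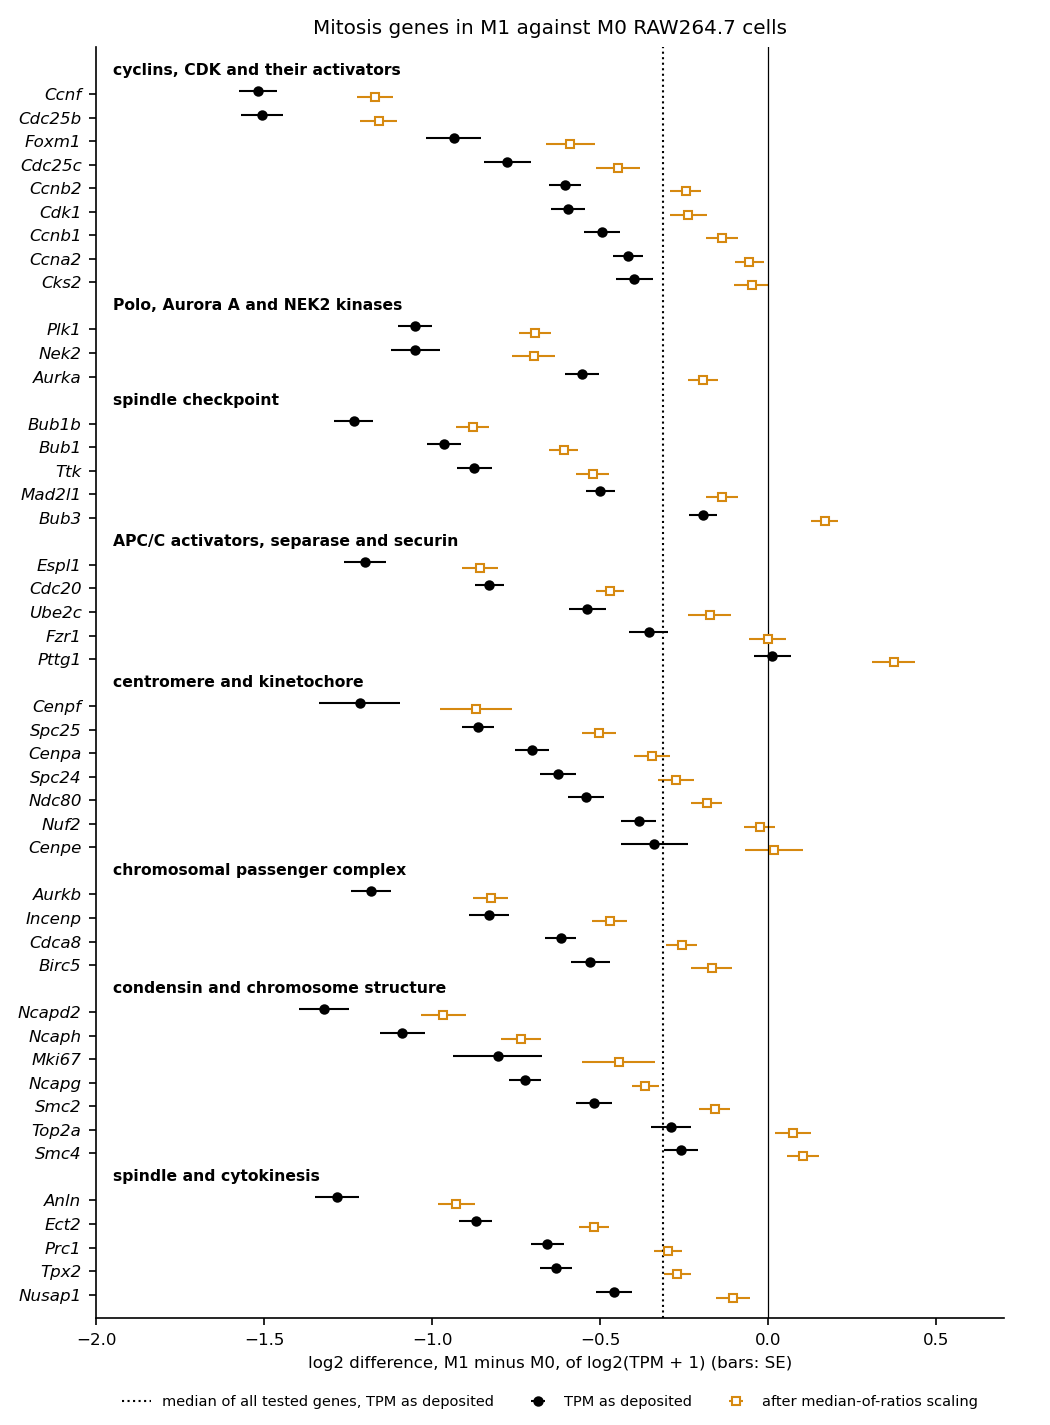
Fitted log2 difference, M1 minus M0 (horizontal axis), of each of the 45 genes by role, with its SE; filled circles are TPM as deposited, open squares are after median-of-ratios scaling, and the dotted line is the median of all tested genes at -0.31 on the TPM scale. Values run from -1.52 in Ccnf to 0.01 in Pttg1 on the TPM scale. After rescaling Pttg1, Bub3, Smc4, Top2a and Cenpe lie right of 0, and of these only Pttg1 and Bub3 were called.

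By role, the median log2 difference on the TPM scale was -1.05 for the 3 kinases, -0.87 for the checkpoint, -0.72 for the passenger complex and for condensin and chromosome structure, -0.66 for spindle and cytokinesis, -0.63 for the kinetochore, -0.61 for cyclins and activators and -0.54 for the anaphase-promoting complex group. Within the anaphase-promoting complex group alone the differences ran from -1.20 in Espl1 to 0.01 in Pttg1. No role was tested against another. Across the 45 genes, M0 abundance and the log2 difference had a Spearman rho of 0.45, with the more abundant genes nearer 0, against -0.01 over all tested genes; the genes share libraries, so this is a description. Both come from the same M0 values.

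The mitosis genes outside the 45 were counted in 8 further lists holding 102 tested genes. Of these, 91 were called lower and 4 higher on the TPM scale, and 70 lower and 13 higher after rescaling, with medians of -0.62 and -0.28. Over all tested genes the shares were 61.5% lower and 18.7% higher on the TPM scale, and 35.4% lower and 38.1% higher after rescaling, and the counts of each list below stand against these. All 20 further spindle and cytokinesis genes were lower on the TPM scale and 18 fell, and the 3 genes particular to condensin II all fell. Kif18a, a kinesin that damps chromosome movement, averaged 3.85 ± 0.333 TPM in M1 and 11.2 ± 1.05 TPM in M0. Ncapd3, the condensin II counterpart of Ncapd2, averaged 7.16 ± 0.531 TPM in M1 and 19.8 ± 0.920 TPM in M0. In both genes the mean in M1 was well under that in M0, with log2 differences of -1.33 and -1.35 on the TPM scale.

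Of 15 further outer kinetochore and checkpoint genes, 14 were lower and 1 higher on the TPM scale, and 12 were lower and 1 higher after rescaling. Ska2, of the complex that tracks microtubule ends, averaged 15.6 ± 0.386 TPM in M1 and 39.3 ± 0.783 TPM in M0, and Zwint, of the outer kinetochore, averaged 77.9 ± 1.87 TPM in M1 and 69.8 ± 2.26 TPM in M0, a rise on both scales (0.16 on the log2 TPM scale; limma adjusted p = 0.00823). Of 18 inner centromere genes 17 were lower on the TPM scale, and 12 were lower and 1 higher after rescaling. Cenpm, of the constitutive centromere network, averaged 10.96 ± 0.140 TPM in M1 and 21.5 ± 1.26 TPM in M0. Of 12 entry kinases and phosphatases 12 were lower on the TPM scale, and 9 were lower and 1 higher after rescaling. Bora, which helps Aurora A activate Plk1, averaged 3.95 ± 0.273 TPM in M1 and 8.98 ± 0.551 TPM in M0.

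Of 14 subunits and regulators of the anaphase-promoting complex, 9 were lower and 1 higher on the TPM scale, and 6 were lower and 5 higher after rescaling. These counts lie near the shares over all tested genes, apart from the count higher on the TPM scale. Fbxo5 (Emi1), an inhibitor of the complex, averaged 16.2 ± 0.697 TPM in M1 and 39.3 ± 1.95 TPM in M0, a fall of 1.23 on the log2 TPM scale. Ube2s, which extends the ubiquitin chains that Ube2c begins, averaged 90.0 ± 0.312 TPM in M1 and 79.3 ± 1.92 TPM in M0 and rose by 0.18 on that scale. Of 9 cohesin genes 7 were lower on the TPM scale, and 5 were lower and 2 higher after rescaling. Cdca5 (sororin), which protects cohesion until anaphase, averaged 10.6 ± 1.32 TPM in M1 and 26.0 ± 0.361 TPM in M0.

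Among the 11 genes of MuvB, DREAM and B-MYB, the complexes known to act at the CHR, 9 were lower and 2 higher on the TPM scale, and 5 were lower and 3 higher after rescaling. The list had a median of -0.36 on the TPM scale and -0.03 after rescaling, near those of all tested genes. Mybl2, which encodes B-MYB, averaged 9.88 ± 0.726 TPM in M1 and 32.4 ± 1.03 TPM in M0, a log2 difference of -1.62 (limma adjusted p = 7.87e-10) on the TPM scale, set beside -1.52 for Ccnf. E2f5, an E2F of the DREAM complex, averaged 36.4 ± 0.746 TPM in M1 and 17.99 ± 0.635 TPM in M0 and rose by 0.98 on that scale (limma adjusted p = 1.07e-08). These are transcript levels, and no complex or protein was measured.

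Set beside earlier phases of the cycle, 29 of 30 DNA replication genes were lower and 1 higher on the TPM scale, with a median of -0.88 on the TPM scale and -0.54 after rescaling. Cdc6, which loads the replicative helicase, averaged 1.53 ± 0.123 TPM in M1 and 13.8 ± 0.722 TPM in M0. The gene that was higher on both scales, Rfc3 of the clamp loader, averaged 54.3 ± 2.18 TPM in M1 and 46.0 ± 0.420 TPM in M0. Orc2 was called lower on the TPM scale (-0.20) and higher after rescaling (0.16). Of 17 tested G1 genes 14 were lower and 2 higher on the TPM scale, with a median of -1.25 on the TPM scale and -0.92 after rescaling. In that list E2f2 averaged 2.44 ± 0.258 TPM in M1 and 19.6 ± 1.27 TPM in M0, and the inhibitor Cdkn1a (p21) averaged 182 ± 7.87 TPM in M1 and 89.3 ± 0.895 TPM in M0. The other tested CDK inhibitors were called lower on the TPM scale: Cdkn1b (-0.35), Cdkn1c (-0.46), Cdkn2c (-1.99) and Cdkn2d (-0.91). After rescaling Cdkn1b and Cdkn1c were not called. The difference between these lists and the mitosis genes was not tested.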

How the data were processed

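The 3 M1 and 3 M0 groups follow the labels. TPM values were deposited by the authors, with transcript and coordinates. A second deposited table holds, per the file headers, log2 values per sample, log2 fold changes, p-values and adjusted p-values; its fold column, headed M0 vs. M1, runs M1 minus M0. Tools listed in the submitters' processing notes, without roles, are STAR 2.7.5a, HOMER 4.11.1, bcl2fastq and DESeq2, with the build mm10. Coordinates are the table's. limma 3.58.1 (trend, robust; R 4.3.3) was fitted to log2(TPM + 1), with no term but group (4 residual degrees of freedom), for genes that reached 1 TPM in 3 samples or more; fold changes are on that scale and understate low genes, and folds are ratios of mean TPM. Rescaling divided TPM by median-of-ratios factors over genes above 0 in every sample. Reads were recovered from TPM times length and cover counting error only. Each role's largest, smallest and most abundant gene, those whose call depended on scaling and 10 preset genes were given per sample. In other lists the largest fall and rise were given, with Orc2 and the other tested CDK inhibitors added. Members and lists were chosen with earlier results of these data known. Alternatives covered scaling, pseudocount, filter, variance model, replicate block and leaving out samples. The procedure was tested on simulated data. A further marker list is not reported here.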

Additional observations from a re-analysis of the deposited data

How the results depend on the processing

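With a pseudocount of 0.1, no filter, a filter of 5 TPM, limma without trend and robust, or M1 replicate 3 and M0 replicate 1 both left out (chosen after seeing the data), all 45 calls and directions on the TPM scale were those given. Rescaling gave 2 genes called higher in place of 0 (also with those samples left out, with the replicate block, and in the authors' deposited table), a median of -0.30 in place of -0.66, and a difference in summed TPM of -481 in place of -1203. Bub3 then turned to 0.17 (0.16 with both samples left out, 0.17 with the block and in the authors' table), Smc4 to 0.10 (0.065, 0.10 and 0.10), Top2a to 0.073 (0.073 with the block, 0.071 in the authors' table) and Cenpe to 0.017 (0.017 with the block, 0.012 in the authors' table); Fzr1 was 0.0031 in the authors' table. By construction, rescaling moves every gene up in M1 relative to M0. With both samples left out after rescaling, 33 genes were lower and 2 higher, and the median was -0.30. Ube2c (-0.094), Birc5 (-0.12) and Mad2l1 (-0.085) lost their calls and Cenpe (-0.14) gained one. On the rescaled scale these samples hold the lowest M1 and highest M0 values of Ube2c and Mad2l1, so their differences must shrink. In Birc5, M1 replicate 3 is lowest and M0 replicate 1 lies above the M0 mean, with the same effect. In Cenpe they are the highest M1 and lowest M0, so its difference must widen. Nothing is drawn from these changes of call. Without both samples, and without M0 replicate 1 alone, the median was -0.68 on the TPM scale. Leaving out each sample in turn gave 44 genes lower and 0 higher every time, medians of -0.68 to -0.65, summed differences of -1236 to -1178 TPM, and log2 ratios of -0.53 to -0.44 (Cdc20 to Fzr1), 0.05 to 0.15 (Ccnb1 to Ccnb2) and -0.10 to -0.06 (Ccnb1 to Ccna2). Only Pttg1 changed sign, to -0.032 without M1 replicate 1 and -0.02 without M0 replicate 3, in a range up to 0.063. Correlations of same-numbered samples were 0.0714, -0.0757 and 0.0368, within the range of other-numbered samples (-0.179 to 0.152). Deviations within a group offset each other, so these values cannot decide whether samples were paired. With the replicate block 44 genes were lower and 0 higher. With 3 samples a group, differences as small as that of Pttg1 on the TPM scale (0.01 ± 0.06) could not be resolved. The causes of these shifts were not tested.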

Other observations

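Transcript length and the log2 difference on the TPM scale had a Spearman rho of -0.29 across the 45 mitosis genes and -0.06 across all tested genes; the genes share libraries, so these are descriptions. By annotation, 16 of the 45 genes share exonic bases with another gene, Ube2c most of all and then Ncapg (13.4%, with Lcorl), Cdc25c (12.7%, with Gm3550), Ccna2 (12.5%, with Exosc9) and Prc1 (11.1%, with Rccd1). Reads of such pairs could be split or shared by counting without strand, and their part in the values was not tested.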
